A study of Mus musculus with 9 samples.

Results

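The genes described here were 48 genes of the TGF-beta and BMP pathways, taken by gene symbol from a fixed list of ligands, latent TGF-beta binding proteins, receptors, SMADs, target genes and secreted antagonists. All 48 were found among the 50813 gene rows of the count table, and 42 of them passed the filter on low counts, out of 14593 genes that passed in all. The counts came from polyA RNA-seq of the mouse lung tumour line LLC (Lewis lung carcinoma), which is mesenchymal-like. Each of 3 lines, namely WT, KO clone E3 and KO clone E5 (both edited in Cd47), gave 3 of the 9 libraries. All cells were grown untreated in DMEM with 10% FBS, and the LLC cells used in the study stably expressed luciferase. Each KO line was 1 clone expanded after Cas9 and a guide RNA against Cd47 were introduced as a ribonucleoprotein, so the loss of CD47 and the descent from 1 cell cannot be told apart within a clone.

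TGF-beta, activin and BMP ligands are secreted dimers that bind a pair of type I and type II receptor kinases. The type I receptor phosphorylates a receptor-regulated SMAD, which joins Smad4, enters the nucleus and switches target genes such as Id1, Id2 and Id3. TGF-beta is secreted in a latent form held in the matrix by some of the LTBP proteins, while antagonists such as gremlin and follistatin bind ligands outside the cell. In carcinoma cells TGF-beta is best known for driving epithelial to mesenchymal transition, and BMPs for patterning and differentiation.

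Total counts per library ran from 44257404 to 55095219. Cd47 itself had 187, 179 and 182 CPM (counts scaled to library size, with TMM factors) in the WT libraries, 47.4, 36.7 and 49.6 in clone E3 and 15.5, 18.6 and 18.1 in clone E5. It was lower in both clones, with log2 fold changes of -2.03 (SE 0.128) and -3.39 (SE 0.136). Replicate 3 of clone E3 stood apart from the other libraries. Its root mean square deviation from the mean of its group was 0.335 on the log2(CPM + 0.5) scale, against 0.0877 to 0.226 in the other 8 libraries, and its median difference from the other clone E3 libraries ran from 0.27 in the lowest quartile of exon length to -0.37 in the highest. The alveolar markers Sftpc, Sftpb and Nkx2-1 and the epithelial marker Epcam had 0 counts in every library. The 5 epithelial markers together, nearly all of it Krt8 and Krt18, summed to 451 to 459 CPM in WT, 127 to 199 in clone E3 and 896 to 958 in clone E5. The 4 mesenchymal markers summed to 6327 to 6851, 6680 to 7778 and 7787 to 9119 CPM, of which Vim made up 4131 to 4217, 4848 to 6333 and 6093 to 6833. Vim and S100a4 rose in both clones, Fn1 had means of 1929, 1097 and 1220 CPM with every KO library below WT (FDR = 0.0757 and 0.171), and Cdh2 passed in neither clone (FDR = 0.903 and 0.3). The 5 leukocyte markers summed to at most 3.47 CPM, and the 4 endothelial markers to at most 0.253 CPM. Whether the keratin or mesenchymal marker levels bear on the pathway genes was not tested.

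The first question was which pathway genes differed from WT in each clone. In KO clone E3, 18 of the 42 tested genes passed the test, which here means an FDR under 0.05. The levels of Bmp2, Bmp4, Inhba, Id2, Fst and Fstl1 rose, while those of Bmp6, Gdf15, Ltbp2 and Tgfbi fell, by factors from 2.17 for Ltbp2 to 26.0 for Gdf15. In KO clone E5, 14 genes passed, led by falls of Bmp2, Bmp4, Bmp6, Inhbb and Smad6. Bmp2 and Bmp4 thus rose in clone E3 and fell to 1 or 2 counts over all 3 libraries in clone E5. In such bulk libraries, fewer cells that express a gene and less of its RNA per cell cannot be told apart.

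By direction, 10 of the 42 tested pathway genes (23.8%) were higher in clone E3 than in WT, where 15.7% of all tested genes were, and 8 (19.0%) were lower, where 14.7% of all tested genes were. The DEGs, which also needed an absolute log2 fold change above 1, were 11 (26.2%) beside 9.82% of all tested genes. In clone E5, 5 (11.9%) were higher beside 8.96% of all tested genes, 9 (21.4%) were lower beside 11.7%, and 5 (11.9%) were DEGs beside 8.21%. The median log2 fold change over the pathway genes was -0.04 for clone E3 and -0.14 for clone E5, beside 0.01 and -0.0023 over all tested genes. The median absolute log2 fold change was 0.34 in each clone, beside 0.31 and 0.25 over all tested genes. Placing Bmp2, Bmp4 and Smad6, which had almost no counts in clone E5, at their detection bounds leaves these medians in place. No test was made over the list, and the genes that the filter removed are not in these shares. Inhba and Fst passed the filter through clone E3, where they were high, and Bambi through KO libraries. Of 32 pathway genes with at least 10 counts in every library, 11 passed in clone E3 (5 higher, 4 DEGs). Under that filter 30.5% of all tested genes passed in clone E3.

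Without replicate 3 of clone E3, 21 pathway genes passed in clone E3 (13 higher and 8 lower) and 24 in clone E5 (10 higher and 14 lower). The share of all tested genes that passed also rose without this library, from 30.5% to 43.2% in clone E3 and from 20.6% to 42.0% in clone E5. The 3 lines shared 1 estimate of the spread, so this library entered the error of the clone E5 comparison too. The clone E5 count was 8 without WT replicate 2, WT replicate 3 or clone E5 replicate 2, when the share of all tested genes that passed fell from 20.6% to 11.9%, 12.9% and 12.3%. The count of genes lower in clone E3 was 5 without WT replicate 2, when 19.3% of all tested genes passed in that clone in place of 30.5%.

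**Figure D1:**
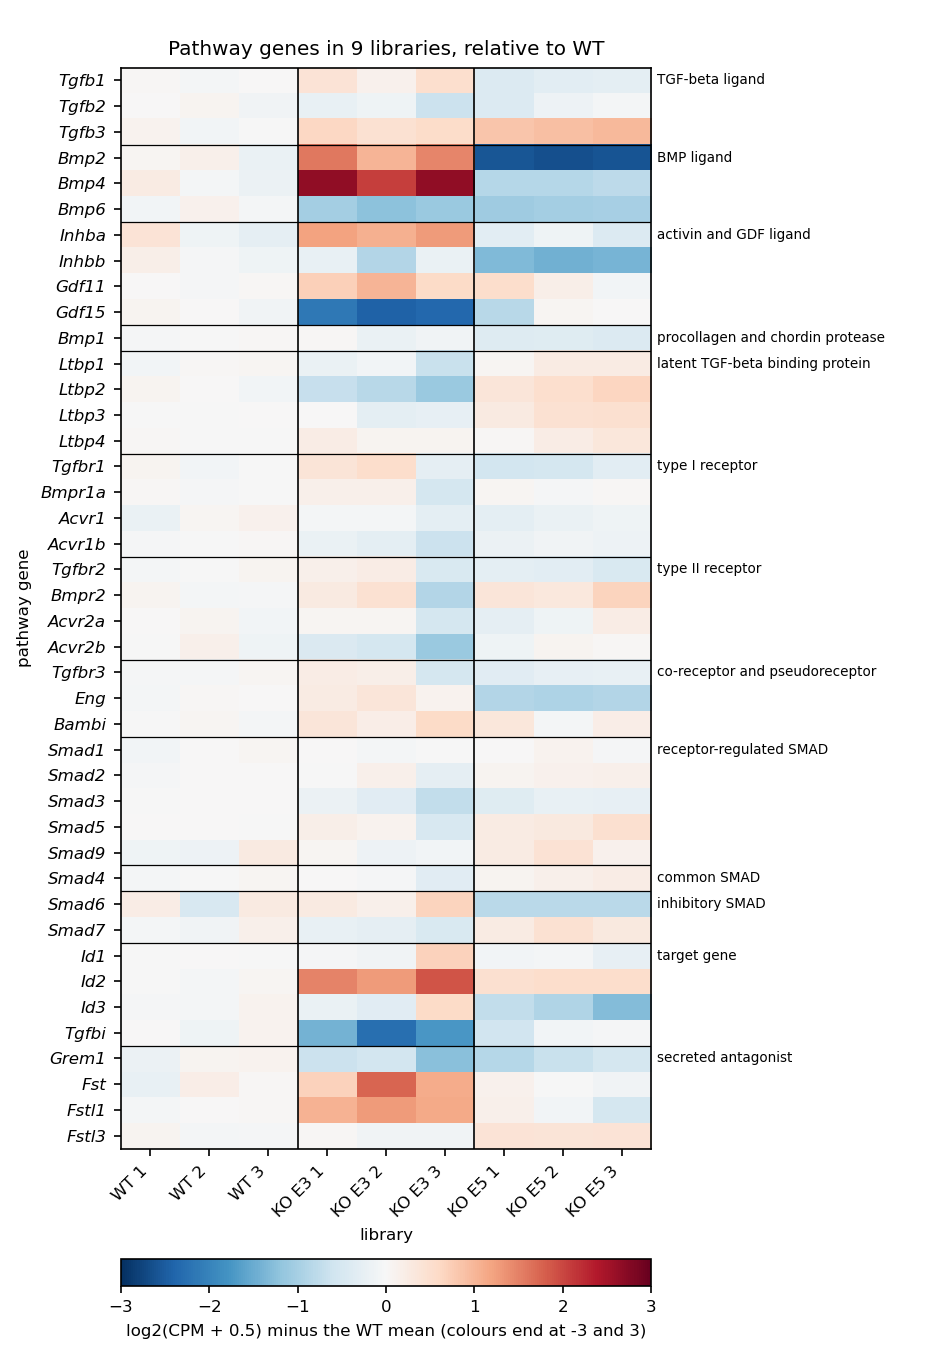
Level of the 42 tested pathway genes (rows, grouped by role) in the 9 libraries (columns), as log2(CPM + 0.5) minus the mean of the WT libraries; red is higher and blue is lower than WT, and the colours end at -3 and 3. Bmp2 and Bmp4 are red in the 3 clone E3 libraries and blue in the 3 clone E5 libraries (Bmp4 faintly, since it was already low in WT). Gdf15 is blue in the 3 clone E3 libraries and faintly so in replicate 1 of clone E5.

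The BMP ligands Bmp2 and Bmp4 moved in opposite directions in the clones, and Bmp6 fell in both. Bmp2 and Bmp4, secreted ligands of the BMP receptors, lie on chromosome 2 from 133394079 to 133404805 and on chromosome 14 from 46620977 to 46628126 in the GRCm39 build. The 200 bases before the start site of each gene are shown because these genes moved together in each clone. They were read from the GRCm39 genome at the canonical start site of the GENCODE annotation, at chr2:133393879-133394078 on the plus strand and chr14:46628127-46628326 on the minus strand, and run 5′ to 3′ along the gene with CG dinucleotides in capitals.
Bmp2: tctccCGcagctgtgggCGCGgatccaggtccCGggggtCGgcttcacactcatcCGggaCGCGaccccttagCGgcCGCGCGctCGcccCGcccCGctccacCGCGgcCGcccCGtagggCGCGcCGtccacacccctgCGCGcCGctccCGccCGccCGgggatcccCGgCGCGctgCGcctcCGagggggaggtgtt
Bmp4: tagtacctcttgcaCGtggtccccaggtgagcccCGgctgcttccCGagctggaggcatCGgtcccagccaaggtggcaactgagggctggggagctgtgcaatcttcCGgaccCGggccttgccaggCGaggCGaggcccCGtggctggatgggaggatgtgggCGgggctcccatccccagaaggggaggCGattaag
The Bmp2 window held 33 CG dinucleotides at 79.5% GC and the Bmp4 window 11 at 67.5% GC. Over 21770 windows of the same length before protein-coding genes the median was 7, with quartiles of 2 and 13, and 90.6% held at least 1 CG. The median over the windows of the 48 pathway genes was 13.5. Neither of the SMAD-related motifs searched on both strands, GGCGCC and CAGACA, occurred in these 2 windows. They occurred in 8.3% and 12.6% of all such windows and in 10 and 7 of those of the 48 pathway genes. Shorter or inexact forms were not searched.

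Bmp2 had 2.72, 2.94 and 2.20 CPM in the WT libraries and 8.82, 5.83 and 8.07 CPM in clone E3. In clone E5 it had 1, 0 and 1 counts. Every clone E3 library lay above every WT library and every clone E5 library below. The rise in clone E3 was 2.89-fold (log2 fold change 1.53, SE 0.202, FDR = 0.000389). Over the summed counts Bmp2 was 192-fold lower in clone E5 than in WT, with a 95% exact counting interval from 52.9 to 1594. The fitted log2 fold change in clone E5 was -7.34 (FDR = 1.48e-06).

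Bmp4 followed the same order at a lower level. It had 0.561, 0.358 and 0.295 CPM in WT, 5.22, 3.25 and 5.21 CPM in clone E3, and 0, 0 and 1 counts in clone E5. The lines did not overlap. The rise in clone E3 was 11.2-fold (log2 fold change 3.48, SE 0.306, FDR = 3.73e-05). The summed counts in clone E5 were 59.7-fold lower than in WT, with a counting interval from 10.3 to 2398. The fitted log2 fold change in clone E5 was -5.44 (FDR = 0.000522). The counting intervals cover counting error only. The 1 Bmp4 count in clone E5 came from replicate 3, and without that library none was left.

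Bmp6, another BMP ligand, differed from both of them in that it was low in each clone. It had 31, 38 and 30 counts in WT, 4, 0 and 2 in clone E3 and 3, 4 and 5 in clone E5. No KO library reached the lowest WT library. The log2 fold changes were -3.95 (SE 0.499, FDR = 0.000304) and -3.03 (SE 0.441, FDR = 0.000822), and the difference between the clones did not pass the test (log2 fold change 0.92, 95% confidence interval -0.62 to 2.46, FDR = 0.342). Without clone E3 replicate 1, which held 4 of its 6 counts, the value in clone E3 was -4.83. Bmp5 had 2 to 8 counts in every library and Bmp7 had 0 counts in all 9, and neither was tested.

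Among the TGF-beta ligands, Tgfb3 rose in both clones and Tgfb1 rose in clone E3. Tgfb3 had a mean of 14.2 ± 0.923 CPM in WT (SD, n = 3), 21.0 ± 1.18 in clone E3 and 27.0 ± 1.26 in clone E5. Its log2 fold changes were 0.56 (SE 0.0964, FDR = 0.0017) and 0.92 (SE 0.0965, FDR = 9.12e-05). Tgfb1, the most studied of the 3 ligands, had means of 24.1, 31.0 and 19.1 CPM. It was above WT in every clone E3 library (log2 fold change 0.36, SE 0.110, FDR = 0.0311) and below WT in every clone E5 library, where it missed the threshold (log2 fold change -0.34, SE 0.110, FDR = 0.0534, and 0.027 with DESeq2). The Tgfb1 call in clone E3 was lost without any 1 WT library, clone E3 replicate 1 or clone E5 replicate 2 (FDR 0.0547 to 0.122), and the one in clone E5 was gained without clone E3 replicate 3 (FDR = 0.00621). Tgfb2 stood at 2.61, 1.99 and 2.20 CPM and passed in neither clone.

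The 4 activin and GDF ligands all differed between the clones, beside 31.9% of all tested genes. The Gdf11 difference (log2 difference -0.56, FDR = 0.0263) was lost without clone E3 replicate 2 or clone E5 replicate 2 or 3 (FDR up to 0.0996). Gdf15, a stress-induced cytokine, had 2.58, 2.46 and 2.22 CPM in WT, 0.160, 0.0423 and 0.0660 CPM in clone E3 and 1.14, 2.54 and 2.44 CPM in clone E5. The clone E3 libraries held 13 counts together and lay far below the rest, whereas clone E5 overlapped WT. The fall in clone E3 was 26.0-fold (log2 fold change -4.70, SE 0.446, FDR = 5.59e-05), and clone E5 gave -0.24 (SE 0.300, FDR = 0.628). Without clone E3 replicate 1, which held 8 of the 13 counts, the fall was 43.0-fold.

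Inhba encodes the subunit of activin A and Inhbb that of activin B. Inhba had 0.441, 0.147 and 0.0844 CPM in WT, 1.14, 0.972 and 1.23 CPM in clone E3 and 0.0646, 0.152 and 0.0370 CPM in clone E5. It rose in clone E3 (log2 fold change 2.29, SE 0.475, FDR = 0.00495), where no library overlapped WT, and clone E5 overlapped WT (log2 fold change -1.43, SE 0.672, FDR = 0.165). Without WT replicate 1, which held 22 of the 33 WT counts, these values were 3.23 and -0.48. Inhbb had 57, 44 and 40 counts in WT, 38, 14 and 35 in clone E3 and 4, 2 and 3 in clone E5. The 9 counts of clone E5 lay far below both other lines, with a log2 fold change of -3.93 against WT (SE 0.468, FDR = 0.000216), and clone E3 gave -0.67 (SE 0.333, FDR = 0.156). Gdf11, a ligand close to myostatin, rose from a mean of 13.5 CPM in WT to 23.5 in clone E3 (log2 fold change 0.80, SE 0.168, FDR = 0.00515) and was at 15.9 in clone E5 (log2 fold change 0.24, FDR = 0.368).

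**Figure D2:**
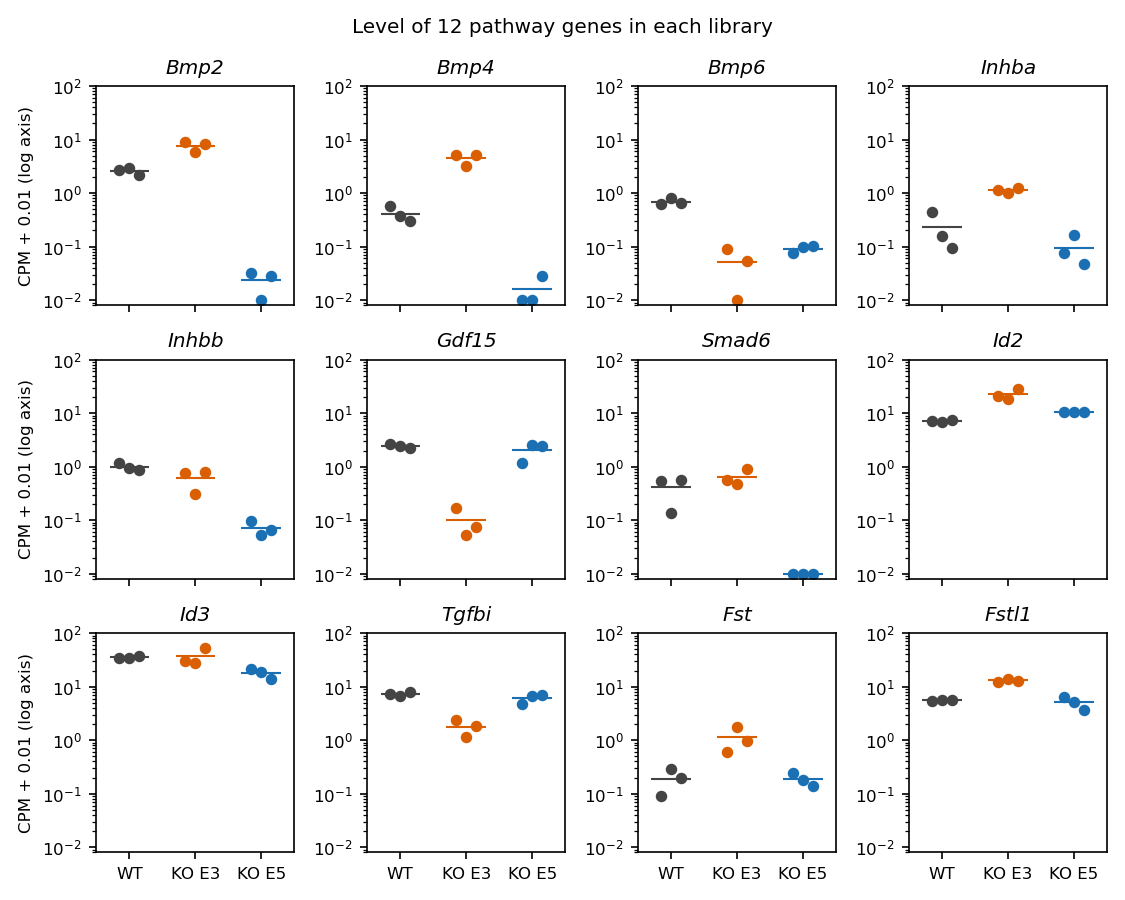
CPM + 0.01 on a log axis for 12 pathway genes, 1 panel a gene; points are the 3 libraries of WT, KO E3 and KO E5 and the line is their mean. Bmp2 and Bmp4 drop to at most 1 count per library in KO E5, Smad6 drops to 0 there, and Gdf15 and Tgfbi drop in KO E3.

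Of the LTBP genes and Bmp1, Ltbp2 changed most. It had 2.74, 2.59 and 2.41 CPM in WT, 1.40, 1.23 and 0.923 CPM in clone E3 and 3.43, 3.86 and 4.27 CPM in clone E5. The 3 lines did not overlap, with clone E3 lowest and clone E5 highest. The log2 fold changes were -1.12 (SE 0.186, FDR = 0.00142) and 0.58 (SE 0.173, FDR = 0.0382). Ltbp3, a carrier of latent TGF-beta, stood at 441 CPM in WT, 391 CPM in clone E3 and 583 CPM in clone E5, and rose in the latter (log2 fold change 0.40, SE 0.108, FDR = 0.0245). Bmp1, which despite its name is a protease that cleaves procollagen and the BMP antagonist chordin, fell from 335 CPM in WT to 257 in clone E5 (log2 fold change -0.38, SE 0.0892, FDR = 0.0125) and was at 315 in clone E3 (FDR = 0.479). Ltbp1 and Ltbp4 passed in neither clone, with log2 fold changes between -0.29 and 0.20. Ltbp1 shares its locus with another annotated gene, so its counts are uncertain. In clone E5 the calls of Ltbp2 (without any 1 WT or clone E5 library, FDR 0.0588 to 0.139), Ltbp3 (without any 1 WT library or clone E5 replicate 2 or 3, FDR 0.0831 to 0.1) and Bmp1 (without WT replicate 2 or 3 or clone E5 replicate 2, FDR 0.0521 to 0.0605) were lost, while Ltbp4 gained one without clone E3 replicate 3 (log2 fold change 0.21, FDR = 0.0407).

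Most receptors were expressed in all 3 lines. In clone E3, 1 of 4 tested type I receptors, 1 of 4 type II receptors and 1 of 3 co-receptors (with Bambi) passed. The share of all tested genes that passed was 30.5%. In clone E5, 0, 0 and 1 of them passed, beside 20.6% of all tested genes. More of them passed without replicate 3 of clone E3, as given below. Per kilobase of exon, the WT levels ran from 34.5 CPM per kb for Tgfbr3, the betaglycan co-receptor, through 10.8 for Bmpr1a, 9.51 for Eng, 9.20 for Tgfbr2, 7.16 for Acvr1, 6.26 for Acvr1b, 3.67 for Bmpr2, 2.97 for Tgfbr1 and 1.93 for Acvr2a, to 0.776 for Acvr2b. Of the neighbours in this order, Eng and Tgfbr2 overlapped between WT libraries, as did Acvr1 and Acvr1b. Bmpr1b had 1 count in all 9 libraries and Acvrl1 had at most 9 counts in a library, and neither was tested.

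Eng, which encodes the co-receptor endoglin, gave the clearest receptor difference. It had a mean of 74.2 ± 2.46 CPM in WT (SD, n = 3), 87.8 ± 7.98 in clone E3 and 39.8 ± 0.595 in clone E5. Every clone E5 library lay below every other library. The log2 fold change was -0.90 in clone E5 (SE 0.0930, FDR = 8.43e-05) and 0.24 in clone E3 (SE 0.0921, FDR = 0.0694). Without replicate 3 of clone E3 the latter was 0.31 and passed (FDR = 0.0019), as it did with DESeq2 (FDR = 0.0444).

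Among the type I and type II receptors, the activin receptors Acvr1b and Acvr2b fell in clone E3, while Acvr2a, another activin receptor, did not pass (log2 fold change -0.12, FDR = 0.661). Acvr2b, a type II receptor, fell from 8.68 CPM in WT to 5.26 (log2 fold change -0.72, SE 0.181, FDR = 0.013), and Acvr1b, a type I receptor, from 29.7 to 23.0 CPM (log2 fold change -0.37, SE 0.118, FDR = 0.0373). The Acvr1b call was lost without any 1 WT or clone E5 library (FDR 0.0557 to 0.114) and the Acvr2b call without WT replicate 2 (FDR = 0.0589). In clone E5 the log2 fold changes of the 8 tested type I and type II receptors ran from -0.47 for Tgfbr1 to 0.45 for Bmpr2, with FDR values of 0.1 and 0.272 for these 2 genes. Acvr1b, Eng and Smad5 host a non-coding RNA and Bmpr2 overlaps another annotated gene, so their counts may include reads of these.

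Replicate 3 of clone E3 had the lowest values of all 9 libraries for Bmpr1a, Acvr1b, Bmpr2, Tgfbr3, Acvr2a and Acvr2b. The calls of Acvr1b and Acvr2b in clone E3 and of Eng in clone E5 held without it (FDR 0.0139, 0.00378 and 2.7e-07), and other receptors gained calls. Bmpr2, the type II BMP receptor, had 79.9, 90.9 and 36.1 CPM in clone E3 and 70.4, 63.7 and 65.0 CPM in WT. Without that library, Tgfbr1, Bmpr2 and Tgfbr3 passed as higher in clone E3, with log2 fold changes of 0.46 (FDR = 0.00228), 0.36 (FDR = 0.0122) and 0.20 (FDR = 0.0253), where the values with it were 0.26, 0.055 and -0.0038. The clone E5 values hardly moved, but with the smaller spread Tgfbr1 (-0.47, FDR = 0.0014), Tgfbr2 (-0.36, FDR = 0.00105) and Tgfbr3 (-0.26, FDR = 0.00353) passed as lower and Bmpr2 (0.46, FDR = 0.00169) as higher.

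Bambi, a pseudoreceptor without a kinase that blocks the signal, was near the limit of detection. It had 3, 4 and 2 counts in WT, 11, 7 and 15 in clone E3 and 10, 2 and 8 in clone E5. Its log2 fold change of 1.86 in clone E3 (SE 0.584, FDR = 0.0353) rested on these few counts and was lost without any 1 WT library, clone E3 replicate 1 or 3 or clone E5 replicate 3 (FDR 0.0529 to 0.121).

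**Figure D3:**
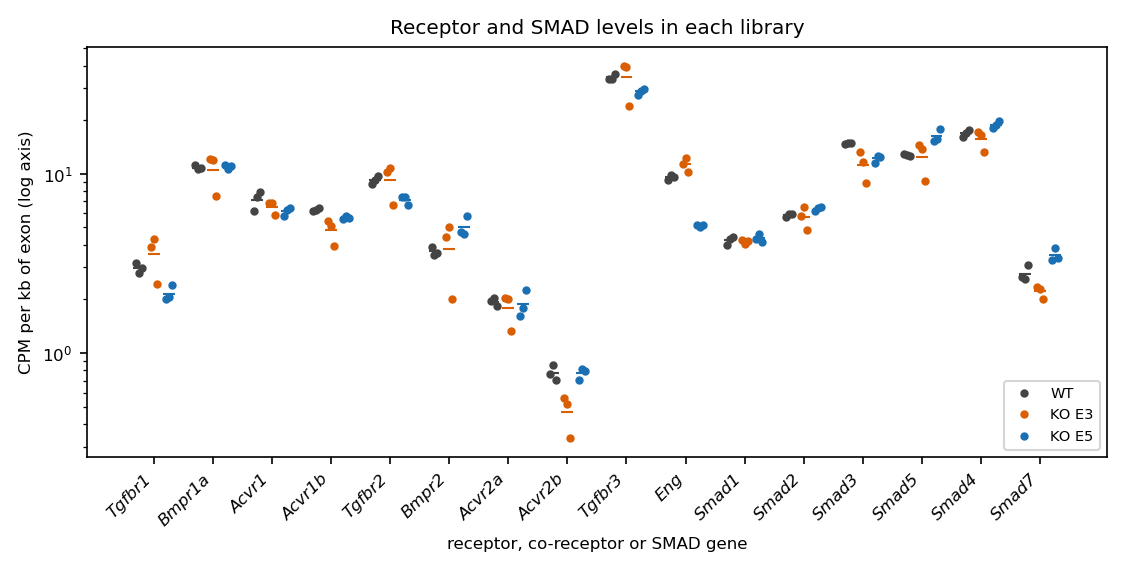
CPM per kb of exon, on a log axis, of 16 receptor, co-receptor and SMAD genes; points are the 3 libraries of WT, KO E3 and KO E5 and the short lines are their means. The points of Eng in KO E5 lie below all others of that gene, and 1 KO E3 point, that of replicate 3, lies below the other KO E3 points in most of these genes.

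The SMADs that carry the signal, apart from the scarcely detected Smad9, had log2 fold changes of at most 0.40 in size in both clones, whereas the inhibitory SMAD Smad6 was not detected in clone E5. Per kilobase of exon the WT levels were 16.8 CPM per kb for Smad4, the common partner, 14.7 for Smad3 and 5.86 for Smad2, which carry TGF-beta and activin signals, and 12.7 for Smad5 and 4.26 for Smad1, which carry BMP signals. Smad9, the remaining BMP-type SMAD, was at 0.031 CPM per kb. It had 26, 21 and 46 counts over the 3 libraries of WT, clone E3 and clone E5, with log2 fold changes of -0.29 (SE 0.510, FDR = 0.71) and 0.80 (SE 0.452, FDR = 0.248). The log2 fold changes of these SMADs other than Smad9 ran from -0.40 to 0.34 in the clones. Smad3 fell in clone E3 from 85.4 to 64.7 CPM (log2 fold change -0.40, SE 0.131, FDR = 0.0407). Without clone E3 replicate 3, its lowest library at 51.2 CPM, the Smad3 value was -0.26 (FDR = 0.00969), and the call was lost without any 1 WT or clone E5 library or clone E3 replicate 2 (FDR 0.0561 to 0.112). In clone E5, Smad3 (-0.27, FDR = 0.00399), Smad4 (0.16, FDR = 0.0408) and Smad5 (0.35, FDR = 0.00099) passed without clone E3 replicate 3 and not with it.

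Smad6 and Smad7 encode the inhibitory SMADs, which are themselves induced by the pathway. Smad6 had 26, 6 and 26 counts in WT, 28, 22 and 41 in clone E3 and 0 in each clone E5 library. WT and clone E3 overlapped, and clone E5 lay below both. Taking a limit of 3 counts over the group, Smad6 was at least 19.6-fold lower in clone E5 than in WT and at least 31.1-fold lower than in clone E3. The fitted difference of clone E5 from WT passed the test (FDR = 0.00478). Smad7 had a mean of 13.1 ± 1.33 CPM in WT (SD, n = 3), 10.4 ± 0.871 in clone E3 and 16.6 ± 1.44 in clone E5. The log2 fold changes of -0.33 (FDR = 0.0612) and 0.34 (FDR = 0.0677) missed the threshold, though both passed with DESeq2 (FDR = 0.0442 and 0.0418), and the one in clone E5 passed without clone E3 replicate 3 (FDR = 0.0114).

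The Id genes, which encode inhibitors of helix-loop-helix transcription factors and are standard targets of BMP signals, did not move as a group. Id2 rose in both clones, Id3 fell in clone E5 and Id1 passed in neither. The 200 bases before the start sites of Id2 and Id3 are shown because these 2 targets moved in opposite directions in clone E5. They lie at chr12:25147283-25147482 on the minus strand and chr4:135870608-135870807 on the plus strand of GRCm39, again 5′ to 3′ with CG dinucleotides in capitals.
Id2: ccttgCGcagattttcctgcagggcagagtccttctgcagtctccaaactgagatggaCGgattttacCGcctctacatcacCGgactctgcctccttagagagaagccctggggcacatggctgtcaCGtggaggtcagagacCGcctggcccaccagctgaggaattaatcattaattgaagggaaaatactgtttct
Id3: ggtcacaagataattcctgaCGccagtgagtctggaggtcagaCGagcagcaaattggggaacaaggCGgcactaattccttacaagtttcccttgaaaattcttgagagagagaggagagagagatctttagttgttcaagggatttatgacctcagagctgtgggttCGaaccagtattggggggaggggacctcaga
The windows held 6 and 4 CG dinucleotides at 52.5% and 48.5% GC, near the median of 7 over all such windows. Neither motif named above occurred in them. Shorter or inexact forms of the motifs, and sites outside the 200 bases, were not searched.

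Id2 had 7.15, 6.88 and 7.53 CPM in WT, 21.1, 18.0 and 27.9 CPM in clone E3 and 10.3, 10.6 and 10.5 CPM in clone E5. The 3 lines did not overlap, with clone E3 highest. The log2 fold changes were 1.64 in clone E3 (SE 0.153, FDR = 5.23e-05) and 0.54 in clone E5 (SE 0.152, FDR = 0.03). The clone E5 call of Id2 was lost without any 1 WT or clone E5 library (FDR 0.0702 to 0.110).

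Id3 had 34.3, 33.8 and 37.6 CPM in WT, 30.5, 27.9 and 52.7 CPM in clone E3 and 21.0, 18.7 and 13.9 CPM in clone E5. Every clone E5 library was lower than all others, and clone E3 spread around WT, with its replicate 3 the highest of all libraries. The log2 fold change was -0.98 in clone E5 (SE 0.231, FDR = 0.0132), and it was lost without clone E5 replicate 3 (FDR = 0.0535). In clone E3 it was 0.07 (FDR = 0.847) and -0.27 without replicate 3 (FDR = 0.126). Id1 showed the same single high library, with 13.6, 13.2 and 22.9 CPM in clone E3 beside 14.0, 14.2 and 14.1 in WT and 13.4, 13.4 and 11.8 in clone E5. Its log2 fold changes were 0.23 and -0.13, and that of clone E3 was -0.07 without replicate 3.

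Tgfbi, a matrix protein named for its induction by TGF-beta, fell in clone E3. It had 7.31, 6.65 and 7.89 CPM in WT, 2.42, 1.12 and 1.80 CPM in clone E3 and 4.72, 6.81 and 7.08 CPM in clone E5. Clone E3 lay below every other library, and clone E5 overlapped WT. The fall in clone E3 was 4.08-fold (log2 fold change -2.03, SE 0.255, FDR = 0.000296), and clone E5 gave -0.23 (SE 0.235, FDR = 0.55).

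Of the 4 tested secreted antagonists, Fst and Fstl1 rose in clone E3, Fstl3 rose in clone E5 and Grem1 fell in both. Fst encodes follistatin, which binds activin, and Fstl1 a follistatin-like secreted protein. Fst had 0.0801, 0.273 and 0.190 CPM in WT, 0.600, 1.78 and 0.967 CPM in clone E3 and 0.237, 0.174 and 0.129 CPM in clone E5, so that clone E3 lay above all other libraries and clone E5 overlapped WT. Its log2 fold changes were 2.61 (SE 0.493, FDR = 0.00293) and -0.015 (SE 0.608, FDR = 0.989). Fstl1 had 5.39, 5.66 and 5.72 CPM in WT, 12.1, 14.2 and 12.9 CPM in clone E3 and 6.27, 5.21 and 3.72 CPM in clone E5. It showed the same order, with log2 fold changes of 1.22 (SE 0.172, FDR = 0.000551) and -0.15 (SE 0.174, FDR = 0.619).

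Grem1, which encodes the BMP antagonist gremlin, was the most abundant antagonist and was lower in both clones. It had a mean of 103 ± 10.6 CPM in WT (SD, n = 3), 59.5 ± 14.8 in clone E3 and 63.9 ± 7.16 in clone E5. Every KO library lay below every WT library. The log2 fold changes were -0.79 (SE 0.176, FDR = 0.00711) and -0.69 (SE 0.176, FDR = 0.0194), and the clones did not differ detectably (0.10, 95% confidence interval -0.29 to 0.49, FDR = 0.693). Fstl3, another activin-binding protein, rose in clone E5 from 9.40 to 12.6 CPM (log2 fold change 0.42, SE 0.101, FDR = 0.0146) and was at 9.04 CPM in clone E3. The clone E5 call of Grem1 was lost without WT replicate 2 or 3 or clone E5 replicate 1 or 2 (FDR 0.0677 to 0.0885), and that of Fstl3 without the same libraries (FDR 0.0561 to 0.0827). Nog had 0 counts in all 9 libraries, Chrd had at most 7 in a library, and neither was tested.

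**Figure D4:**
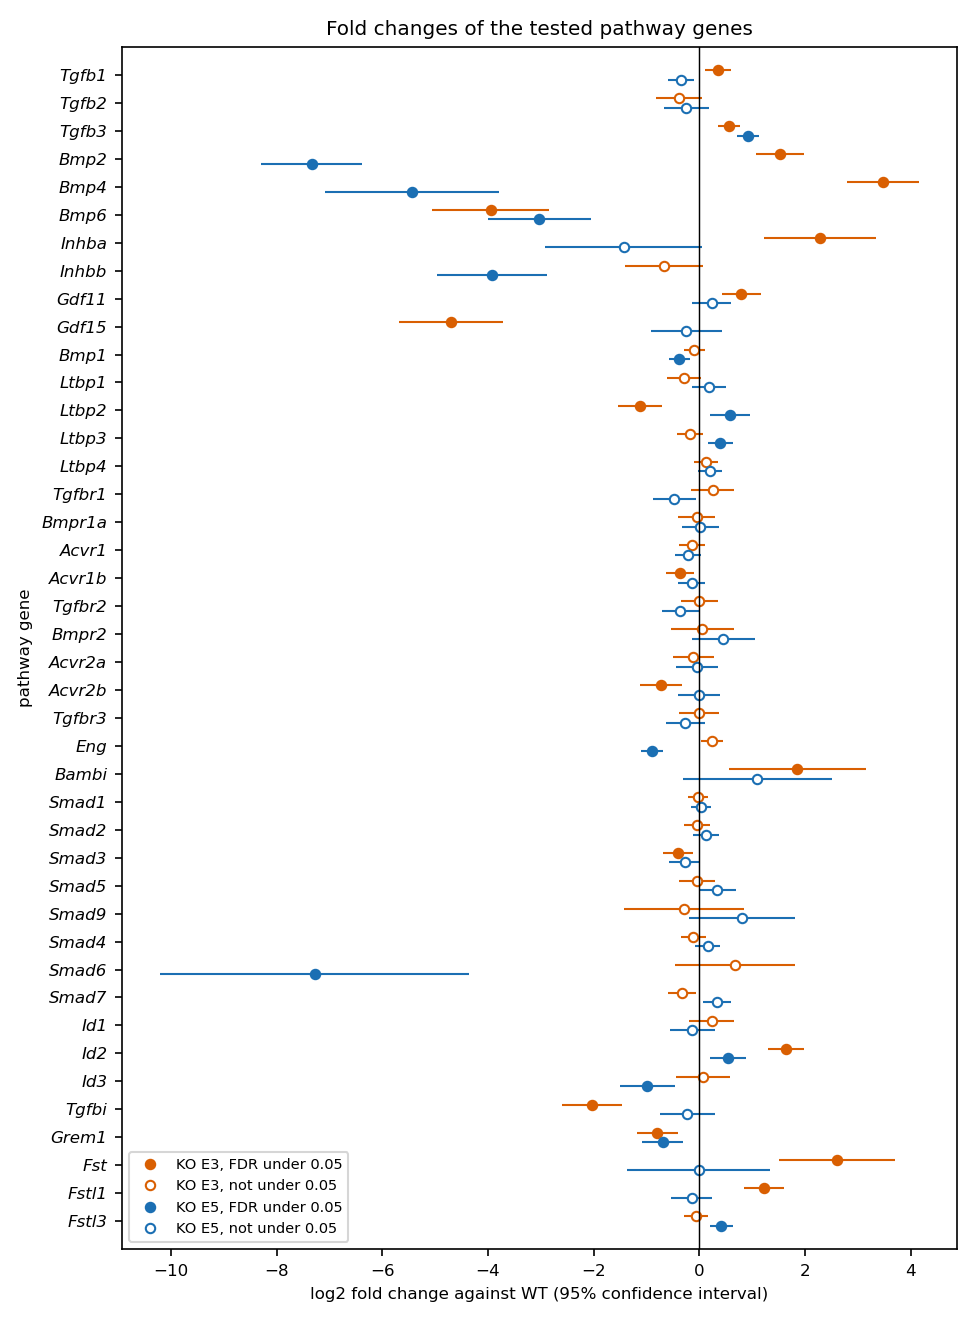
Log2 fold change against WT with its 95% confidence interval for the 42 tested pathway genes, clone E3 in orange and clone E5 in blue; filled points have an FDR under 0.05 and open points do not. Both clones used the same WT libraries, and the fitted values of Bmp2, Bmp4 and Smad6 in clone E5 depend on the prior count of the fit because these genes had 0 to 2 counts there.

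The second question was whether the clones differed from each other, which was tested directly. Of the 42 tested genes, 23 differed between clone E5 and clone E3. There were 9 (21.4%) higher in clone E5 beside 14.7% of all tested genes, 14 (33.3%) lower beside 17.2%, and 13 (31.0%) DEGs beside 11% of all tested genes. The median absolute log2 difference was 0.57, beside 0.32 over all tested genes. Without replicate 3 of clone E3, 26 passed, when 44.1% of all tested genes did in place of 31.9%.

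Between the clones, Bmp2, Bmp4 and Smad6 were near or at 0 counts in clone E5. Bmp2 was 556-fold higher in clone E3 than in clone E5 by summed counts (95% exact counting interval 154 to 4600) and Bmp4 669-fold (interval 120 to 26473), and Smad6 was a DEG with the bound given above (FDR = 0.00135). Inhba, Inhbb, Fst, Fstl1, Id2, Id3 and Eng were the other DEGs that were higher in clone E3, with log2 differences of clone E5 against clone E3 from -3.72 for Inhba to -1.05 for Id3. Without 1 library, the value of Inhba was -4.41 (clone E5 replicate 2) and that of Gdf15 was 5.18 (clone E3 replicate 1). Gdf15 (4.45, SE 0.450), Tgfbi (1.80, SE 0.255) and Ltbp2 (1.70, SE 0.184) were DEGs and higher in clone E5. Smaller differences that passed included Tgfb1 (-0.70, SE 0.110), Tgfbr1 (-0.73, SE 0.186), Smad7 (0.67, SE 0.120) and Acvr2b (0.71, SE 0.181). The Tgfbr1 difference was lost without clone E5 replicate 1 or 2 (FDR 0.0525 and 0.0533) and that of Acvr2b without clone E5 replicate 2 (FDR = 0.0506). The receptor-regulated SMADs and Smad4 did not pass, and their FDR values ran from 0.085 for Smad5 to 0.654 for Smad1. Smad5 passed without replicate 3 of clone E3 (log2 difference 0.21, FDR = 0.032).

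Another 121 genes of the pathway, from a list that covered further ligands, receptors, activators of latent TGF-beta, SMAD regulators, antagonists and target genes, gave 76 that could be tested. In clone E3, 20 were higher and 18 lower (26.3% and 23.7%), and in clone E5, 9 were higher and 16 lower (11.8% and 21.1%), beside the shares of all tested genes given above. The counts fell most without WT replicate 2, to 24 passing in clone E3 (12 higher) and to 4 higher in clone E5, where 5 were higher without clone E5 replicate 2. The shares of all tested genes fell in the same fits, as given above. Of the 21 tested TGF-beta target genes 8 (38.1%) were higher and 5 (23.8%) lower in clone E3, beside 15.7% and 14.7% of all tested genes. In clone E5, 4 (19.0%) were higher and 5 (23.8%) lower, beside 8.96% and 11.7%. Without replicate 3 of clone E3, 8 were lower in clone E5, when 42.0% of all tested genes passed there in place of 20.6%. Of the 9 tested BMP target genes 3 (33.3%) were higher and 1 (11.1%) lower in clone E3, and 0 were higher and 2 (22.2%) lower in clone E5. The shares of all tested genes beside these are the same as for the TGF-beta target genes. Of the 16 tested SMAD regulators 6 (37.5%) were lower and 0 higher in clone E3, beside 14.7% and 15.7% of all tested genes. In clone E5, 0 of these 16 passed, beside 20.6% of all tested genes. The 6 included Smurf1, a ubiquitin ligase for SMADs (log2 fold change -0.54, FDR = 0.0284), and Tgif1, a SMAD co-repressor (log2 fold change -0.64, FDR = 0.00286). Without replicate 3 of clone E3, 7 of the SMAD regulators were lower in clone E3, when 43.2% of all tested genes passed in place of 30.5%. In clone E5 2 were then higher and 1 lower, when 42.0% of all tested genes passed.

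The 8 of these genes with the largest mean change over both clones included a BMP-type ligand and proteins that bind BMPs or TGF-beta. Gdf7, a BMP-type ligand, had 152, 164 and 160 counts in WT, 2, 3 and 0 in clone E3 and 1, 1 and 2 in clone E5, and its log2 fold changes were -6.45 and -6.79. Bmper, which binds BMPs outside the cell, followed the order of Bmp2 and Bmp4, with 13, 6 and 8 counts in WT, 67, 69 and 42 in clone E3 and 1, 0 and 0 in clone E5. It rose in clone E3 (log2 fold change 2.72, SE 0.359, FDR = 0.000393), and its summed counts in clone E5 were 27.3-fold lower than in WT, with a counting interval from 4.5 to 1119. Dcn encodes decorin, a proteoglycan that binds TGF-beta, and fell from a mean of 24.9 CPM in WT to 2.85 CPM in clone E3 and 0.347 CPM in clone E5. Pcsk6, a proprotein convertase that cleaves precursors of this ligand family, fell from 6.26 to 0.331 CPM in clone E3 and rose to 31.7 CPM in clone E5 (log2 fold changes -4.21 and 2.34). It overlaps another annotated gene, so its counts are uncertain.

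Among target genes, Msx2, a homeobox gene induced by BMPs, was lower in both clones, with means of 2.34, 0.395 and 0.250 CPM in WT, clone E3 and clone E5. Il11, a cytokine induced by TGF-beta, had means of 3.47, 2.38 and 0.866 CPM (log2 fold changes -0.54 and -2.0). Col1a1, a fibrillar collagen gene, had means of 1.67, 3.31 and 0.606 CPM, and so rose in clone E3 and fell in clone E5 (log2 fold changes 0.99 and -1.45). Lefty1, an inhibitor of the related ligand Nodal, rose in both clones from 0.558 to 1.36 and 1.29 CPM. The clone E3 calls of Il11 (without WT replicate 1 or 2, FDR up to 0.0778), Col1a1 (without WT replicate 2, FDR = 0.0512) and Lefty1 (without WT replicate 2 or 3, FDR up to 0.0781) were lost, as was the clone E5 call of Lefty1 without any 1 WT or clone E5 library (FDR up to 0.127).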

How the data were processed

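RNA-seq counts were used for WT LLC cells and for KO clones E3 and E5, with 3 libraries of each. Per the labels and the study's methods, the authors ran FastQC and Trimmomatic on the reads and STAR against GRCm39, and the deposited table holds raw counts by gene with every replicate kept apart. Which counter, strand setting and annotation were used is not given in the sources used here. Totals per library exceed the number of reads that the labels state, and whether mates were counted separately is not given, so counting intervals may be too narrow.

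Differences were tested with the quasi-likelihood F-test of edgeR 4.0.16 in R 4.3.3 after TMM scaling. Genes had to pass filterByExpr (count of 10, total of 15), the 3 lines shared 1 model, and FDR is the Benjamini-Hochberg value over 14593 genes. An SE is the size of the log2 fold change divided by the root of F, and intervals are at 95%. CPM per kb used exon lengths and start sites of GENCODE for GRCm39. The study called the replicates independent biological replicates, each group being 1 line. CPM in every library is given for DEGs with a mean of at least 1 CPM in some line, group means for other genes that passed, and ranges for the rest. Counts per library of Bmp6, Inhbb, Smad6, Bambi, Gdf7 and Bmper and the levels of Id1, Id3 and Bmpr2 were added after their values were seen, as were Smurf1 and Tgif1. Of the further pathway genes, the 8 that passed in both clones with the largest mean absolute log2 fold change were named. The pathway genes and all lists were chosen with earlier results of these data known. The fit was also run on simulated counts, drawn without a library that stood apart as clone E3 replicate 3 did. That run therefore cannot speak to the effect of this library. The alternatives were DESeq2 1.42.0, its size factors within edgeR, an absent and a stricter filter on low counts (10 in each library), a fit of each pair of lines alone, the replicate number as a block, and each library left out in turn.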

Additional observations from a re-analysis of the deposited data

Results flagged for a closer look

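The following genes were singled out because their change against WT differed between the clones, by the edgeR test of clone E5 against clone E3 (FDR under 0.05). All values are log2 differences of clone E5 minus clone E3. Among the ligands they were -8.87 for Bmp2, -8.92 for Bmp4, -3.72 for Inhba, -3.25 for Inhbb, -0.70 for Tgfb1, -0.56 for Gdf11, 0.36 for Tgfb3 and 4.45 for Gdf15. The values of Bmp2 and Bmp4, like the -7.95 of Smad6, depend on the prior count of the fit, since these genes had 0 to 2 counts over the 3 clone E5 libraries.

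For Bmp1 and the LTBP genes the differences were -0.29 for Bmp1, 0.48 for Ltbp1, 1.70 for Ltbp2 and 0.57 for Ltbp3. For receptors they were -0.73 for Tgfbr1, 0.71 for Acvr2b and -1.14 for Eng, and for the inhibitor Smad7 0.67. For target genes they were -1.10 for Id2, -1.05 for Id3 and 1.80 for Tgfbi, and for antagonists -2.62 for Fst, -1.37 for Fstl1 and 0.48 for Fstl3. The differences of Tgfb3 (without clone E5 replicate 2 or 3, FDR up to 0.0616), Gdf11 (without clone E3 replicate 2 or clone E5 replicate 2 or 3, FDR up to 0.0996), Ltbp1 (without WT replicate 2 or clone E5 replicate 2 or 3, FDR up to 0.0961) and Bmp1 (without any 1 library other than clone E3 replicate 2 or 3, FDR up to 0.0963) were lost when 1 library was left out.

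Of the further pathway genes, Dcn gave -3.03, Bmper -7.05 (with 1 count in clone E5), Pcsk6 6.55, Il11 -1.46 and Col1a1 -2.44. Cd47 itself gave -1.36, with fewer counts left in clone E5 than in clone E3.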

How the results depend on the processing

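Of the 18, 14 and 23 pathway genes that differed from WT in clone E3, from WT in clone E5 and between the clones, 13, 7 and 17 passed in all 9 fits that left out 1 library. Under DESeq2, DESeq2 size factors, no filter, the stricter filter, the 2 groups alone and the replicate block, calls kept their direction and threshold in 290 instances and missed the threshold in 19. Values that had not passed did so in 15 instances, 4 with DESeq2 (Eng and Smad7 in clone E3, Tgfb1 and Smad7 in clone E5) and 11 in clone E5 when only the 2 groups were fitted. With at least 10 counts in every library, 32 pathway genes could be tested. The filter removed genes with under 10 counts in at least 1 library, among them the 5 DEGs of clone E5. It left 11 passing in clone E3 (5 higher, 4 DEGs), when 30.5% of all tested genes passed. In clone E5 it left 9 (4 lower, 0 DEGs), when 18.5% of all tested genes passed. Between the clones 8 were lower and 6 were DEGs, when 30.9% of all tested genes passed. Of the further pathway genes, 10 were lower in clone E5 than in WT. Fitting only the 2 groups compared gave 24 pathway genes in clone E5 (11 higher) and 38 further genes (17 higher). The share of all tested genes there rose from 20.6% to 46.8%. This fit also gave 11 further genes lower in clone E3, when 23.5% of all tested genes passed in place of 30.5%. Between the clones it gave 9 further genes higher in clone E5, when 22.0% of all tested genes passed in place of 31.9%. Without a filter, 3 pathway genes were higher in clone E5, when 11.4% of all tested genes passed there. The cause of these other changes was not tested.

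The replicate number as a block also gave 3 pathway genes higher in clone E5, when 15.8% of all tested genes passed there in place of 20.6%. Same-numbered libraries of different lines did not deviate together (r from -0.25 to 0.0993 over 9 pairs, and -0.26 to 0.26 over the 18 other pairs), so the number is not taken as a pairing. Under the block Tgfb1, Acvr1b, Bambi and Smad3 missed the threshold in clone E3, Ltbp2 and Ltbp3 in clone E5 and Bmp1 between the clones.

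Leaving out 1 library gave 5 to 8 pathway genes lower in clone E3, 8 to 24 passing, 1 to 10 higher and 7 to 14 lower in clone E5. For the further genes it gave 24 to 44 passing and 12 to 23 higher in clone E3, 4 to 13 higher in clone E5, and 8 to 23 higher in clone E5 than in clone E3. The highest of these counts came without clone E3 replicate 3, and the 8 lower in clone E3 came from other fits as well. In the same fits the share of all tested genes that passed moved too. It ran from 19.3% to 43.2% in clone E3, from 11.9% to 42.0% in clone E5 and from 21.7% to 44.1% between the clones.

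Direction turned only in genes that did not pass in the main fit. Of these, Tgfbr3 in clone E3 passed once turned, without clone E3 replicate 3 (0.20, FDR = 0.0253). In clone E3, Tgfbr2 turned to -0.0091 without a filter and -0.024 under the block, and Tgfbr3 to 0.0066 under the stricter filter and 0.0018 with 2 groups. In clone E5, Acvr2b turned to 0.0033 and Fst to 0.060 under the block. Leaving out 1 library turned, in clone E3, Bmpr1a (-0.15 to 0.15), Tgfbr2 (-0.13 to 0.18), Bmpr2 (-0.20 to 0.36), Acvr2a (-0.22 to 0.056), Tgfbr3 (-0.13 to 0.20), Smad2 (-0.14 to 0.069), Smad5 (-0.16 to 0.14), Smad9 (-0.59 to 0.37), Id1 (-0.075 to 0.37) and Id3 (-0.27 to 0.23). In clone E5 it turned Gdf15 (-0.43 to 0.035), Bmpr1a (-0.0049 to 0.039), Acvr2a (-0.20 to 0.054), Acvr2b (-0.074 to 0.067), Smad1 (-0.013 to 0.065), Fst (-0.38 to 0.40) and Fstl1 (-0.33 to 0.039). Between the clones it turned Tgfb2 (-0.014 to 0.27), Bmpr1a (-0.12 to 0.17), Acvr2a (-0.092 to 0.17), Smad3 (-0.012 to 0.25) and Grem1 (-0.080 to 0.24). Depth limits Bambi, Smad9, Acvrl1 and Chrd, which had at most 19 counts in any library.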
